A study of Mus musculus with 12 samples.

Results

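The experiment asked what DKK1 changes in macrophages that already receive IL-13. It set bone marrow-derived macrophages (BMDMs) treated with IL-13+DKK1 against BMDMs treated with IL-13, and took every tested gene in both directions. It holds 6 of the 12 RNA seq libraries of the study, 3 for each treatment. The cells were wild-type BMDMs of young adult C57BL/6 mice (C57Bl/6J in the study's methods), grown out of bone marrow with the growth factor M-CSF. IL-13+DKK1 cultures received IL-13 at 2 ng/ml and DKK1 at 30 ng/ml, and IL-13 cultures received IL-13 at 2 ng/ml, both for 24 h. The other 6 libraries, DKK1 at 30 ng/ml for 24 h and untreated BMDMs, served to ask whether the DKK1 effect differed without IL-13. Replicates are biological replicates by their labels, and the number of mice behind them is not given, so p-values measure the spread between these cultures.

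DKK1 (Dickkopf-1) is a secreted protein best known for binding the Wnt coreceptors LRP5 and LRP6 and for blocking Wnt signaling there, and platelets are among its sources. IL-13 is a type 2 cytokine that signals in macrophages through IL-4Rα and IL-13Rα1 to the transcription factor STAT6. Macrophages so stimulated become alternatively activated: they make Arg1, the mannose receptor CD206 (Mrc1), Ym1 (Chil3) and Fizz1 (Retnla), and take part in tissue repair and fibrosis.

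The libraries held 34153721, 40917086 and 38233358 counts with IL-13+DKK1, against 32772880, 35269587 and 36325497 counts with IL-13. Levels are given in CPM, counts scaled to a fixed library total, after TMM scaling, an adjustment of library size for differences in composition. Macrophage genes were high in both groups. Csf1r, the M-CSF receptor, averaged 4556 ± 40.2 CPM with IL-13+DKK1 and 4256 ± 182 CPM with IL-13 (SD, n = 3 each). Adgre1, which encodes F4/80, averaged 3799 ± 84.4 CPM with IL-13+DKK1 and 2296 ± 106 CPM with IL-13. Marker lists of other cell types were mostly scarce. The T and NK cell list summed to 4.37 to 5.98 CPM with IL-13+DKK1 and 2.80 to 5.66 CPM with IL-13, with Cd3e and 9 further markers of 11 not among the tested genes, and the lists of B cells, mast cells and erythroid cells stayed under 20 CPM in each library. The fibroblast list summed to 81.2 to 121 CPM with IL-13+DKK1 and 79.6 to 171 CPM with IL-13. The summed neutrophil list was 1013 to 1187 CPM with IL-13+DKK1 and 639.9 to 876 CPM with IL-13. Of its 12 members, 2 were called higher (16.7%, against 4.66% of all genes) and 1 lower (8.33%, against 6.10% of all genes). Higher were Cxcr2 and Elane, the second not without IL-13 replicate 3, at 0.62 with an adjusted p of 0.0797, and lower was Retnlg. The defining markers Ly6g and Mpo averaged 0.257 and 2.11 CPM with IL-13+DKK1 and 0.535 and 1.80 CPM with IL-13. Most of that sum came from Csf3r, S100a9, Ltf, Ngp and S100a8, none of them called. Csf3r, S100a8, S100a9 and Ltf still rose, with log2 fold changes of 0.75, 0.80, 0.76 and 0.26. Their adjusted p in edgeR's quasi-likelihood test was 1.19e-12, 1.01e-06, 1.21e-06 and 0.0171. Ngp had a log2 fold change of -0.008 (adjusted p = 0.959). By adjusted p alone, 7 of the 12 members were higher and 2 lower. The part of neutrophils in the results was not tested. In bulk RNA, fewer cells of a type and less RNA per cell cannot be told apart.

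DKK1 added to IL-13 shifted a large share of the macrophage transcriptome in both directions. Of 16306 tested genes, 760 were called higher (4.66%) and 994 lower (6.10%), where a call is an adjusted p under 0.05 in edgeR's quasi-likelihood test with an absolute log2 fold change above 1. All log2 fold changes are IL-13+DKK1 over IL-13, and those in the text are followed by an approximate standard error. Genes called higher took 94294 CPM together with IL-13+DKK1, against 33785 CPM with IL-13. Genes called lower took 25967 CPM with IL-13+DKK1, against 71673 CPM with IL-13. More than 4-fold changes were seen in 221 genes called higher and 267 called lower. The groups did not overlap in 1716 of the 1754 called genes, so a lack of overlap does not set a called gene apart. The median log2 fold change of all genes was -0.003, so the gene lists are read against a background centred near 0. Shares called in a gene list are read against these 4.66% higher and 6.10% lower of all genes.

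**Figure D1:**
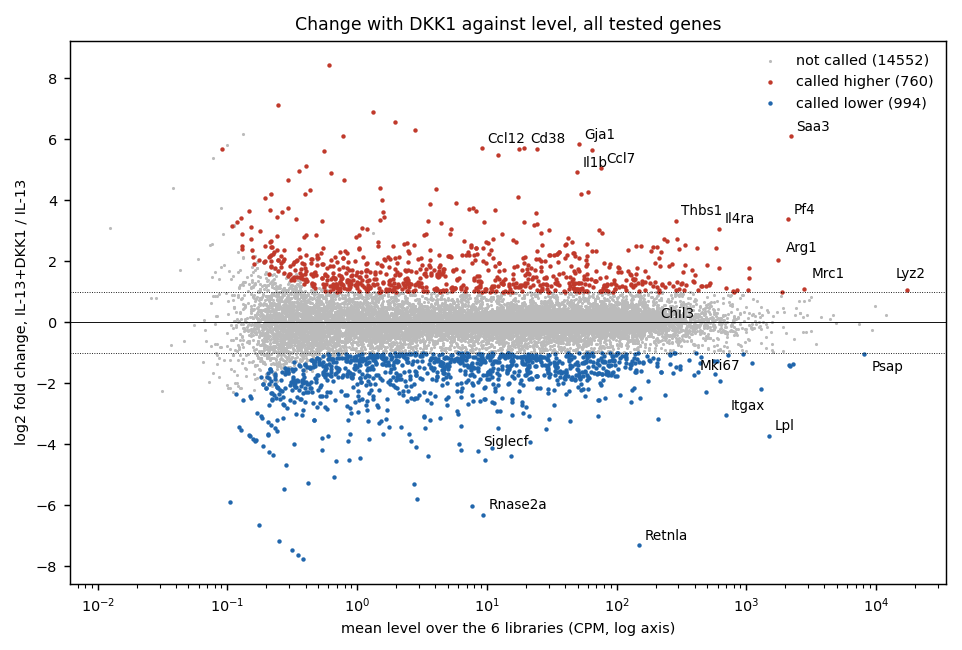
Each point is a tested gene, with its mean level over the 6 libraries (CPM, log axis) against its log2 fold change of IL-13+DKK1 over IL-13, and dotted lines mark a log2 fold change of 1 and -1. The 760 genes called higher and 994 called lower lie over a wide range of levels. Among genes of high level, Saa3 (6.11) stands at the top and Retnla (-7.30) at the bottom, with Chil3 near 0.

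The genes with the largest gain in CPM were Lyz2, Saa3, Pf4, Arg1, Mrc1 and Lgmn. Lyz2 encodes the lysozyme of macrophages and was the most abundant of them, with 23502, 23539.5 and 22595 CPM with IL-13+DKK1, against 11270.0, 10787 and 11453 CPM with IL-13. Its log2 fold change was 1.06 ± 0.03, just past the threshold. Lgmn, the lysosomal protease legumain, averaged 2498 ± 33.8 CPM with IL-13+DKK1 and 1241 ± 63.6 CPM with IL-13 (log2 fold change 1.01 ± 0.03, and 0.97 with library size as the only scaling, which ends its call). The genes with the largest loss were Psap, Lpl, Gpnmb, Cd36, Lgals3 and Lipa, of which Psap, Lpl and Lipa serve lysosomes and lipid breakdown. Psap, the precursor of the saposins, had 5204, 5327 and 5334 CPM with IL-13+DKK1, against 10862, 10900.1 and 11113 CPM with IL-13 (log2 fold change -1.05 ± 0.03).

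Alternative activation genes did not move as a block. Of the 28 tested, 5 were called higher (17.9%: Arg1, Ch25h, Ccl24, Mrc1 and Tfec) and 12 lower (42.9%), against 4.66% and 6.10% of all genes. The median log2 fold change was -0.65. Arg1, the arginase that turns arginine into ornithine, lies on chromosome 10, 24791118 to 24803817 of GRCm39. It had 2861, 2838 and 2855 CPM with IL-13+DKK1, against 625, 686 and 740.3 CPM with IL-13, a log2 fold change of 2.06 ± 0.16 (adjusted p = 2.4e-10). The groups did not overlap, and the IL-13+DKK1 cultures lay close to each other. Mrc1, which encodes the mannose receptor CD206 (chromosome 2, 14234151 to 14336926), had 3494, 3918 and 3963 CPM with IL-13+DKK1, against 1699.6, 1764 and 1869 CPM with IL-13. Its log2 fold change was 1.09 ± 0.06 (adjusted p = 6.55e-13), again with no overlap. Tfec, a transcription factor of the MiT family, averaged 160.4 ± 4.32 CPM with IL-13+DKK1 and 77.5 ± 5.25 CPM with IL-13 (log2 fold change 1.05 ± 0.05). Of 22 tested genes of arginine and polyamine metabolism, 4 were called higher (Arg1, Nos2, Slc7a7 and the mitochondrial arginase Arg2 at 2.43 ± 0.15) and 1 lower, the spermine synthase Sms (-1.44 ± 0.09). These shares were 18.2% higher and 4.55% lower, against 4.66% and 6.10% of all genes. Mrc1, Tfec, Ccl24, Slc7a7 and Lyz2 are not called when the test asks for a change above 2-fold itself rather than for any change. That test left 2 of the 5 alternative activation genes called higher.

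Chil3 (Ym1) had 206, 193 and 191 CPM with IL-13+DKK1, against 175, 213 and 212 CPM with IL-13. The groups overlapped, with a log2 fold change of -0.03 ± 0.07 (adjusted p = 0.784). Chil4 and Slc7a2, an arginine transporter, overlapped as well, at log2 fold changes of -0.11 ± 0.18 and -0.03 ± 0.06. Tgm2, the transglutaminase that marks alternatively activated macrophages in mouse and human, stayed under the fold threshold at 0.92 ± 0.05.

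Retnla (Fizz1, chromosome 16, 48662895 to 48664824) carried the largest fall among genes with a mean of at least 100 counts. It had 1.48, 1.98 and 2.16 CPM with IL-13+DKK1, against 219, 345 and 327 CPM with IL-13, a log2 fold change of -7.30 ± 0.17 (adjusted p = 1.85e-18). The counts behind these levels were 212 over the IL-13+DKK1 libraries and 31902 over the IL-13 libraries. Its mean of 1.87 ± 0.354 CPM with IL-13+DKK1 stood beside means of 0.980 CPM with DKK1 and 1.10 CPM in untreated cells. The stretch of the Retnla promoter from 170 to 91 bases before the RefSeq start is shown because it holds a match to the STAT6-type motif TTCNNNNGAA, here in capitals, at chr16:48662802-48662881 (plus strand) of GRCm39.
Retnla: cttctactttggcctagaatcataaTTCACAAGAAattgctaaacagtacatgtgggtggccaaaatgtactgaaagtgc
That motif reads the same on both strands and can share its last letters with an interferon-type GAAANNGAAA match. It was found in a 300-base promoter window of 7.41% of genes called lower, 7.09% of genes called higher and 6.76% of all tested genes with a window, so called genes held it about as often as all genes did.

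Transcription factors that alternatively activated macrophages express were among the genes called lower. Irf4, an interferon regulatory factor that acts downstream of IL-4 in mouse macrophages, had 2.95, 2.59 and 2.37 CPM with IL-13+DKK1, against 36.2, 40.6 and 43.9 CPM with IL-13 (log2 fold change -3.93 ± 0.14). Pparg, the nuclear receptor of fatty acid storage genes, had 4.93, 5.26 and 3.80 CPM with IL-13+DKK1, against 50.1, 56.6 and 51.9 CPM with IL-13 (log2 fold change -3.50 ± 0.12). Egr2, a zinc finger factor, averaged 21.1 ± 2.7 CPM with IL-13+DKK1 and 124 ± 6.73 CPM with IL-13 (log2 fold change -2.56 ± 0.08). In none of the 3 did the groups overlap, as in 1716 of the 1754 called genes. Further members called lower were Il31ra, Ear2, Mgl2, Mmp12, Flt1, Cd36, Clec7a and Pdcd1lg2, with log2 fold changes between -3.88 (Il31ra) and -1.05 (Pdcd1lg2). Ear2 and Rnase2a encode eosinophil-associated ribonucleases. Rnase2a had 0.118, 0.247 and 0.316 CPM with IL-13+DKK1, against 12.2, 20.9 and 22.5 CPM with IL-13, the second largest fall among well-counted genes (log2 fold change -6.31 ± 0.30). Siglecf, a sialic acid lectin of eosinophils and alveolar macrophages, averaged 0.873 ± 0.0257 CPM with IL-13+DKK1 and 16.3 ± 4.08 CPM with IL-13 (log2 fold change -4.22 ± 0.21). For Retnla, Rnase2a, Siglecf, Mgl2 and Mmp12, IL-13 replicate 1 was the lowest of the IL-13 libraries, and it still stood far above every IL-13+DKK1 library. Retnla, Rnase2a and Siglecf were picked by a rule for large changes that required no overlap.

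**Figure D2:**
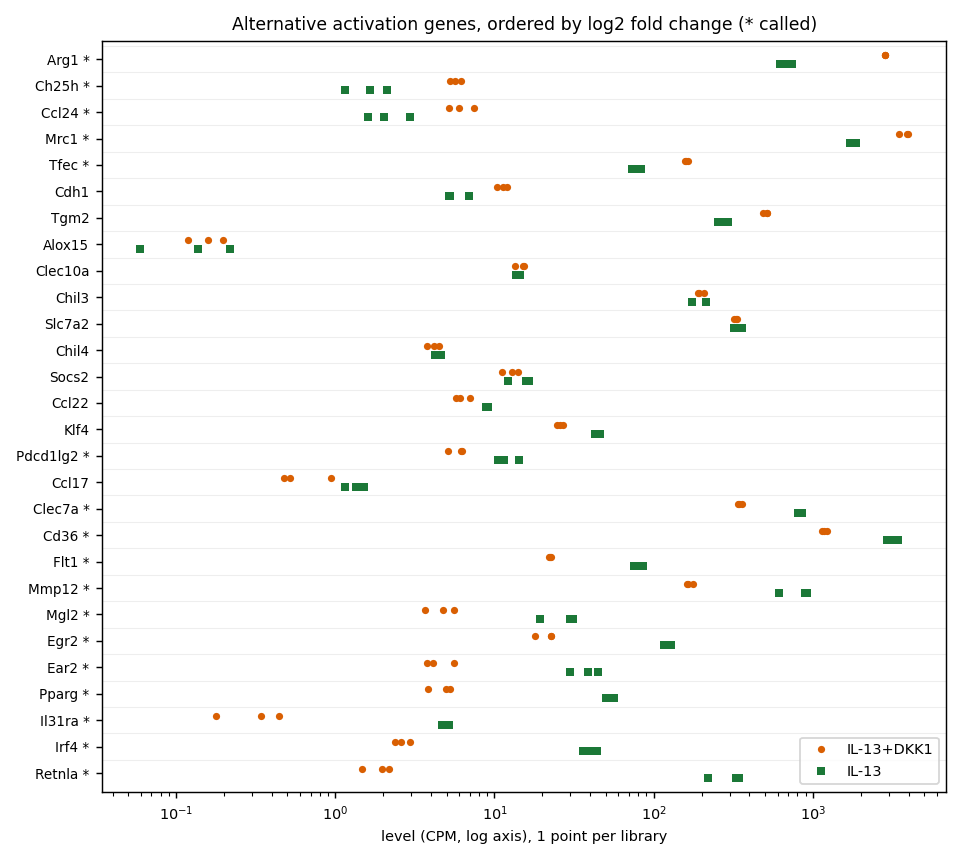
Level of each of the 28 tested alternative activation genes (CPM, log axis), with 1 point per library, IL-13+DKK1 (circles) above IL-13 (squares), ordered by log2 fold change, and an asterisk on called genes. Arg1 and Mrc1 lie to the right with IL-13+DKK1, Chil3 and Slc7a2 overlap, and Retnla, Irf4 and Pparg lie well to the left with IL-13+DKK1.

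Both chains of the receptor through which IL-13 signals rose, and Stat6 was not called. The list for this receptor and its signaling had 19 tested genes, of which 7 were called higher (36.8%) and 0 lower, with a median log2 fold change of 0.33. At an adjusted or unadjusted p of 0.05 alone, 1 was lower. Here and in the lists that follow, each count of 0 from edgeR's quasi-likelihood test was also 0 with DESeq2 and limma-voom. Il4ra (chromosome 7, 125151079 to 125182844), the receptor chain shared by IL-4 and IL-13, had 1104, 1080.2 and 1117 CPM with IL-13+DKK1, against 136, 120.2 and 137 CPM with IL-13. Its log2 fold change was 3.07 ± 0.05 (adjusted p = 3.27e-21) and the groups lay far apart. Il13ra1, the chain that pairs with it to bind IL-13, averaged 23.7 ± 1.72 CPM with IL-13+DKK1 and 9.74 ± 0.945 CPM with IL-13 (log2 fold change 1.28 ± 0.08). Jak3, a kinase bound to the common γ chain, and the adaptor Gab1 were called higher at 1.36 ± 0.06 and 1.91 ± 0.05. Stat6 averaged 278 ± 1.51 CPM with IL-13+DKK1 and 259.6 ± 2.16 CPM with IL-13 (log2 fold change 0.10 ± 0.03). Among feedback inhibitors of cytokine signaling, Socs3 and Socs1 rose. Socs3 had 98.3, 101 and 104 CPM with IL-13+DKK1, against 6.41, 5.08 and 4.96 CPM with IL-13 (log2 fold change 4.21 ± 0.09), and Socs1 averaged 40.3 ± 0.284 CPM with IL-13+DKK1 and 12.4 ± 0.717 CPM with IL-13 (log2 fold change 1.70 ± 0.09). Cish was not called (0.33 ± 0.14, adjusted p = 0.0677). Stat3 was called higher at 1.22 ± 0.05.

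Type I interferon response genes moved together, all upward where called. Of 41 tested, 34 were called higher (82.9%, against 4.66% of all genes) and 0 lower, with a median log2 fold change of 1.33. At an adjusted p alone 40 were higher and, even at an unadjusted p of 0.05, 0 were lower, and Irf1 was the exception (0.03 ± 0.06, and -0.01 with library size as the only scaling). These genes are switched on through interferon-stimulated response elements (ISREs), which a complex holding STAT2 and IRF9 binds, and their products sense or restrict viruses. The ISRE core GAAANNGAAA, searched on both strands, was present in a promoter window of 16 of the 25 list members called higher that have any. It was present in 14.0% of all genes called higher (71 of 508), 2.72% of genes called lower (18 of 661) and 3.97% of all tested genes with a window (423 of 10664). Among genes called higher that are not on this list it was in 11.4% (55 of 483). Whether those genes also respond to interferon was not tested. A match is a run of letters and not a measured binding site. The stretches printed here show the match in capitals, with overlapping matches run together, in interferon response genes and in Socs1 and Saa3, which also rose. On GRCm39 they lie at chr4:156285296-156285375 (minus strand), chr19:34618169-34618248 (plus strand), chr12:26506512-26506591 (minus strand), chr5:120915745-120915824 (minus strand), chr16:10603441-10603520 (minus strand) and chr7:46365171-46365250 (minus strand), in the order printed.
Isg15: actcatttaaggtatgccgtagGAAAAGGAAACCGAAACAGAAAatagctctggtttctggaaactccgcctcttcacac
Ifit1: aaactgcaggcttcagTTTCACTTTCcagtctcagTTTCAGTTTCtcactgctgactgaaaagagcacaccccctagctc
Rsad2: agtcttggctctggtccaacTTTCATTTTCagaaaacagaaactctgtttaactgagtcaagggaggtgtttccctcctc
Oas3: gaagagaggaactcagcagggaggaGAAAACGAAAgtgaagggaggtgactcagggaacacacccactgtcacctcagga
Socs1: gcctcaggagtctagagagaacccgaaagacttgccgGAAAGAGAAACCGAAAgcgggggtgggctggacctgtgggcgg
Saa3: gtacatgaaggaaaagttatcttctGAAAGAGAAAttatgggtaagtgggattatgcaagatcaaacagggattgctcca
Isg15 held 3 matches within its stretch, Ifit1 and Socs1 held 2, and Rsad2, Oas3 and Saa3 held 1.

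Irf7, the factor that amplifies interferon production, had 746, 663 and 698 CPM with IL-13+DKK1, against 196, 102 and 95.1 CPM with IL-13, a log2 fold change of 2.43 ± 0.21 (adjusted p = 2.56e-09). The IL-13 libraries were uneven, with replicate 1 the highest, yet it stayed below every IL-13+DKK1 library. Zbp1, a sensor of Z-form nucleic acids, had 136, 133 and 138 CPM with IL-13+DKK1, against 21.2, 14.0 and 17.6 CPM with IL-13 (log2 fold change 2.95 ± 0.10), the largest change of the list. Isg15, the ubiquitin-like protein whose promoter is printed above, averaged 50.7 ± 1.74 CPM with IL-13+DKK1 and 11.1 ± 2.27 CPM with IL-13 (log2 fold change 2.20 ± 0.13). Ifit1, which binds viral RNA ends, averaged 45.3 ± 0.485 CPM with IL-13+DKK1 and 7.78 ± 0.631 CPM with IL-13 (log2 fold change 2.54 ± 0.12). Of the components of the ISRE complex, Stat2 was called higher at 1.20 ± 0.07, and Irf9 stood under the fold threshold at 0.62 ± 0.04. RNA sensors were called too, with Ddx58 (RIG-I) at 1.42 ± 0.07, Ifih1 (MDA5) at 1.23 ± 0.06 and Dhx58 at 1.48 ± 0.07.

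**Figure D3:**
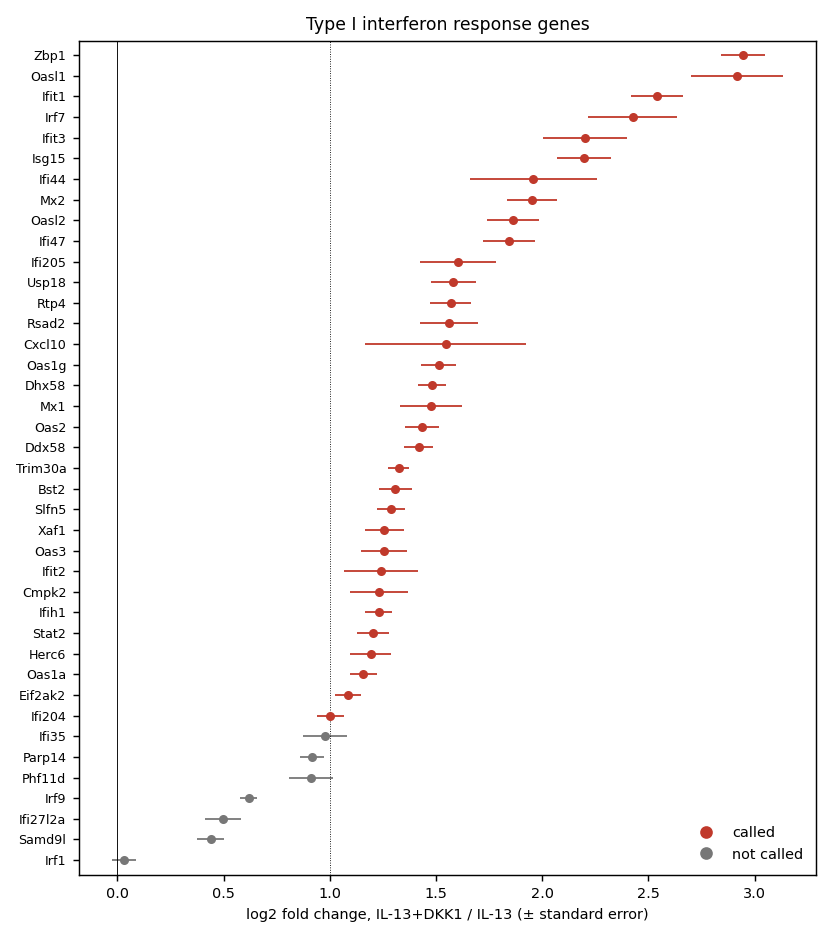
Log2 fold change of IL-13+DKK1 over IL-13 with its standard error for 40 of the 41 tested type I interferon response genes, where red marks the 33 called genes drawn and the dotted line a log2 fold change of 1. Every point lies above 0, from Irf1 at 0.03 (-0.01 with library size as the only scaling) to Zbp1 at 2.95.

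Inflammatory genes rose beside the interferon genes. Of 33 tested genes of the NF-kB and LPS-type list, 15 were called higher (45.5%) and 0 lower (2 at an unadjusted p of 0.05), and the median log2 fold change was 0.89. Saa3, an acute-phase serum amyloid A protein that mouse macrophages make, had 4529, 4104 and 4418 CPM with IL-13+DKK1, against 68.6, 25.6 and 95.1 CPM with IL-13 (log2 fold change 6.11 ± 0.27). It was among the abundant mRNAs with IL-13+DKK1, while the IL-13 libraries differed among themselves, with replicate 2 the lowest. Its paralog Saa1 rose too, with 5.17, 5.51 and 5.85 CPM with IL-13+DKK1 against 7 counts over the IL-13 libraries together, and reads shared by the paralogs cannot be told apart here. Lcn2, a siderophore-binding protein, averaged 129 ± 15.3 CPM with IL-13+DKK1 and 53.6 ± 10.4 CPM with IL-13 (log2 fold change 1.27 ± 0.10). Ptgs2, Ptges, Acod1, Clec4e and Marcksl1 were called as well, between 1.07 (Ptges) and 2.49 (Marcksl1). Nos2, the nitric oxide synthase that competes with Arg1 for arginine, was called but scarce, at 1.22 ± 0.178 CPM with IL-13+DKK1 and 0.0381 ± 0.0331 CPM with IL-13. So was Il6, at 0.754 ± 0.247 CPM with IL-13+DKK1 and 0.0381 ± 0.0331 CPM with IL-13. Relb, an NF-kB subunit, stood under the fold threshold at 0.81 ± 0.05 (adjusted p = 3.44e-12).

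In the IL-1 family, the ligands Il1b and Il1a, the decoy receptor and the antagonist rose, and the ligands Il18 (0.88 ± 0.11) and Il1f9 (0.73 ± 0.28) stayed under the fold threshold. Il1b had 79.4, 110.0 and 97.5 CPM with IL-13+DKK1, against 2.36, 1.92 and 5.10 CPM with IL-13 (log2 fold change 4.93 ± 0.18), and Il1a averaged 4.17 ± 0.317 CPM with IL-13+DKK1 and 0.675 ± 0.300 CPM with IL-13 (log2 fold change 2.61 ± 0.27). Il1rn, the receptor antagonist, had 61.3, 70.2 and 64.3 CPM with IL-13+DKK1, against 15.9, 14.0 and 15.7 CPM with IL-13 (log2 fold change 2.10 ± 0.08). The signaling receptor Il1r1 and the decoy Il1r2 were called higher at 1.89 ± 0.26 and 4.00 ± 0.38, both of them scarce genes with IL-13 (1.34 ± 0.364 CPM for Il1r1 and 0.177 ± 0.0373 CPM for Il1r2). Irak3, an inhibitor of the pathway, was called higher at 1.26 ± 0.06. Il1rl1, which encodes the IL-33 receptor ST2, was the member called lower, at 0.332 ± 0.107 CPM with IL-13+DKK1 and 3.01 ± 0.772 CPM with IL-13. In all, 6 of 23 were called higher (26.1%) and 1 lower (4.35%, against 6.10% of all genes).

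Chemokines showed some of the largest increases. Of 23 tested ligands, 14 were called higher (60.9%) and 2 lower (8.7%, against 6.10% of all genes), with a median log2 fold change of 1.55. The ligands of CCR2 that recruit monocytes rose strongly. Ccl7 had 137, 153 and 153 CPM with IL-13+DKK1, against 5.25, 3.98 and 4.06 CPM with IL-13 (log2 fold change 5.06 ± 0.11, adjusted p = 7.48e-19). Ccl2 averaged 115 ± 5.57 CPM with IL-13+DKK1 and 5.99 ± 1.28 CPM with IL-13 (log2 fold change 4.27 ± 0.13), and Ccl12, a mouse ligand of the same receptor, was called at 5.72 ± 0.24. Ccl8 had 42.8, 47.9 and 53.3 CPM with IL-13+DKK1, against 1.13, 0.439 and 1.25 CPM with IL-13 (log2 fold change 5.67 ± 0.23). These genes lie close together on chromosome 11, from Ccl2 to Ccl8. In all of them the groups stood apart, which the rule that picked Ccl7, Ccl12 and Ccl8 for large changes required.

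A second set lies on chromosome 5 and belongs to the CXC ligands. Pf4 (CXCL4, chromosome 5, 90918479 to 90922110) had 3920.1, 3843 and 3738 CPM with IL-13+DKK1, against 349, 358 and 389 CPM with IL-13 (log2 fold change 3.39 ± 0.06, adjusted p = 3.69e-20). Its neighbour Ppbp (CXCL7) had 133, 124 and 123 CPM with IL-13+DKK1, against 1.91, 1.76 and 3.76 CPM with IL-13 (log2 fold change 5.67 ± 0.14). Both are classic platelet chemokines and belong to the platelet and megakaryocyte list of 10, of which the other tested markers were scarce and not called. Itga2b averaged 0.854 ± 0.274 CPM with IL-13+DKK1 and 0.461 ± 0.316 CPM with IL-13, and without IL-13 replicate 2 it was called higher (1.49, adjusted p = 0.0343). Treml1 averaged 3.42 ± 0.340 CPM with IL-13+DKK1 and 3.72 ± 0.393 CPM with IL-13. Gp1ba averaged 0.816 ± 0.280 CPM with IL-13+DKK1 and 0.965 ± 0.263 CPM with IL-13, and Gp9, Gp1bb, Gp5 and Gp6 were not among the tested genes. Cxcl3 (5.50 ± 0.21), Cxcl2 (3.21 ± 0.11), Cxcl1 and Cxcl5, the neutrophil-attracting ligands of CXCR2, were called higher. Cxcl5 averaged 3.88 ± 0.502 CPM with IL-13+DKK1, with 0.00, 0.0549 and 0.0546 CPM in the IL-13 libraries. Ccl5 had 422, 429 and 425 CPM with IL-13+DKK1, against 78.6, 52.0 and 68.2 CPM with IL-13 (log2 fold change 2.68 ± 0.09). Of the ligands of CCR4, which type 2 macrophages make, Ccl22 had 6.97, 6.08 and 5.75 CPM with IL-13+DKK1, against 9.06, 9.06 and 8.78 CPM with IL-13. It was lower in each IL-13+DKK1 library, at -0.52 ± 0.17 under the fold threshold, and the scarce Ccl17 had 0.946, 0.519 and 0.474 CPM with IL-13+DKK1, against 1.52, 1.35 and 1.15 CPM with IL-13. Ccl17 missed the call at -1.05 ± 0.43 (adjusted p = 0.0554), which DESeq2 and limma-voom made (adjusted p = 0.049 and 0.00806). Cxcl14 was called lower (-1.25 ± 0.06), as was the scarce Cxcl12, whose call is lost without IL-13 replicate 1 (-0.81, adjusted p = 0.0554).

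Chemokine receptors moved in both directions. Ccr2, the receptor of Ccl2, Ccl7 and Ccl12, had 16.9, 14.7 and 15.7 CPM with IL-13+DKK1, against 57.4, 61.9 and 66.0 CPM with IL-13 (log2 fold change -1.97 ± 0.09). Cx3cr1, the fractalkine receptor, had 71.1, 70.6 and 70.7 CPM with IL-13+DKK1, against 207, 211 and 211 CPM with IL-13 (log2 fold change -1.57 ± 0.04). Ccr1 rose instead, with 135, 131 and 129 CPM with IL-13+DKK1, against 13.1, 15.3 and 19.6 CPM with IL-13 (log2 fold change 3.03 ± 0.08). Cxcr2 had 23.9, 17 and 18.4 CPM with IL-13+DKK1, against 5.96, 5.00 and 4.53 CPM with IL-13 (log2 fold change 1.94 ± 0.15), and is also a neutrophil marker, whose list is given above. Cxcr3 and Ccr7 were called higher at 1.52 ± 0.15 and 1.07 ± 0.26. Of the 10 tested receptors, 4 were called higher (40%, against 4.66% of all genes) and 2 lower (20%, against 6.10% of all genes).

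The oxygen-response list leaned upward. Of 32 hypoxia and glycolysis genes, 10 were called higher (31.2%) and 1 lower (3.12%, against 6.10% of all genes), and the median log2 fold change was 0.70. Hif1a (chromosome 12, 73948149 to 73996321), the oxygen-regulated subunit of hypoxia-inducible factor 1, had 385, 407 and 414 CPM with IL-13+DKK1, against 57.5, 57.4 and 68.0 CPM with IL-13 (log2 fold change 2.72 ± 0.06, adjusted p = 2.2e-19). Egln3, a prolyl hydroxylase that marks HIF proteins for breakdown, averaged 8.10 ± 0.90 CPM with IL-13+DKK1 and 0.834 ± 0.337 CPM with IL-13 (log2 fold change 3.26 ± 0.22). Pfkl, the phosphofructokinase subunit of liver, rose by 1.78 ± 0.04, while Pfkp, its platelet-type counterpart, was called lower at -1.28 ± 0.04. Slc16a3, the lactate exporter MCT4, was called at 1.78 ± 0.05 and the mitophagy receptor Bnip3 at 1.44 ± 0.07. Enzymes of the glycolytic trunk such as Ldha (0.91 ± 0.04), Tpi1 (0.77 ± 0.04) and Pgk1 (0.66 ± 0.05) stood under the fold threshold. The 5-letter hypoxia motif ACGTG, searched on both strands, was in a promoter window of 24.4% of genes called higher, 23.8% of genes called lower and 28.7% of all tested genes with a window.

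Genes of the matrix and of growth factors were called in both directions. Thbs1, which encodes thrombospondin-1, an activator of latent TGF-β, had 442, 555 and 567 CPM with IL-13+DKK1, against 62.1, 38.2 and 55.4 CPM with IL-13 (log2 fold change 3.33 ± 0.17). Timp1, an inhibitor of matrix metalloproteinases, had 49.5, 54.1 and 57.1 CPM with IL-13+DKK1, against 7.33, 6.34 and 6.00 CPM with IL-13 (log2 fold change 3.03 ± 0.13). Mmp14, a membrane-bound metalloproteinase, and the proteoglycan Vcan were called higher at 1.90 ± 0.05 and 3.59 ± 0.19, and without IL-13 replicate 3 the value of Vcan was 4.31. Mmp12 (macrophage elastase, -2.28 ± 0.10), Spp1 (osteopontin, -1.53 ± 0.07), Lgals3 (galectin-3, -1.39 ± 0.04) and Ctsk (-1.08 ± 0.16) were called lower. The list of 31 thus counted 4 in each direction (12.9% each, against 4.66% higher and 6.10% lower of all genes). Among growth factors, Igf1 had 595, 647 and 632 CPM with IL-13+DKK1, against 1517, 1579 and 1618 CPM with IL-13 (log2 fold change -1.33 ± 0.04). Pdgfb, a mitogen of mesenchymal cells, averaged 29.4 ± 3.37 CPM with IL-13+DKK1 and 122 ± 5.03 CPM with IL-13 (log2 fold change -2.05 ± 0.06), and the TGF-β receptor chain Tgfbr1 was called lower at -1.33 ± 0.05. Osm (oncostatin M) and Hbegf were called higher at 2.12 ± 0.11 and 2.10 ± 0.32, as were Inhba and Pdgfc. Thus 4 of 24 were called higher (16.7%, against 4.66% of all genes) and 5 lower (20.8%, against 6.10% of all genes). In the coagulation list of 17, F13a1, the transglutaminase that cross-links fibrin, had 526, 506 and 503 CPM with IL-13+DKK1, against 108, 87.2 and 91 CPM with IL-13 (log2 fold change 2.42 ± 0.07). Plau (urokinase) was called lower at -1.71 ± 0.06 and its inhibitor Serpinb2 higher at 3.47 ± 0.42, or 4.07 without IL-13 replicate 3.

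Most proliferation genes were lower. Of 39 cell cycle and DNA replication genes, 26 were called lower (66.7%, against 6.10% of all genes) and 0 higher, with a median log2 fold change of -1.24. At an unadjusted p of 0.05 alone, 35 were lower and 2 higher. Mki67, the standard proliferation marker Ki-67, had 178, 194 and 180.1 CPM with IL-13+DKK1, against 564, 609 and 649 CPM with IL-13 (log2 fold change -1.72 ± 0.09). Cdc20, which activates the anaphase-promoting complex, had 17.3, 20.9 and 18.2 CPM with IL-13+DKK1, against 84.4, 86.7 and 90.3 CPM with IL-13 (log2 fold change -2.21 ± 0.10). Pcna, the clamp of replicative polymerases, had 137, 132 and 124 CPM with IL-13+DKK1, against 415, 418 and 402 CPM with IL-13 (log2 fold change -1.65 ± 0.05). The groups stood apart in all 3. Mitotic genes (Ccnb2 -2.12, Plk1 -1.85, Birc5 -1.77, Kif11 -1.73) and replication genes (Mcm5 -1.10, Mcm7 -1.09, Rrm1 -1.09) fell alike in direction. Ccnd1, the cyclin that growth factor signals induce, was called lower at -1.54 ± 0.08. Cdkn1a, the inhibitor p21, was not called (-0.59 ± 0.05).

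**Figure D4:**
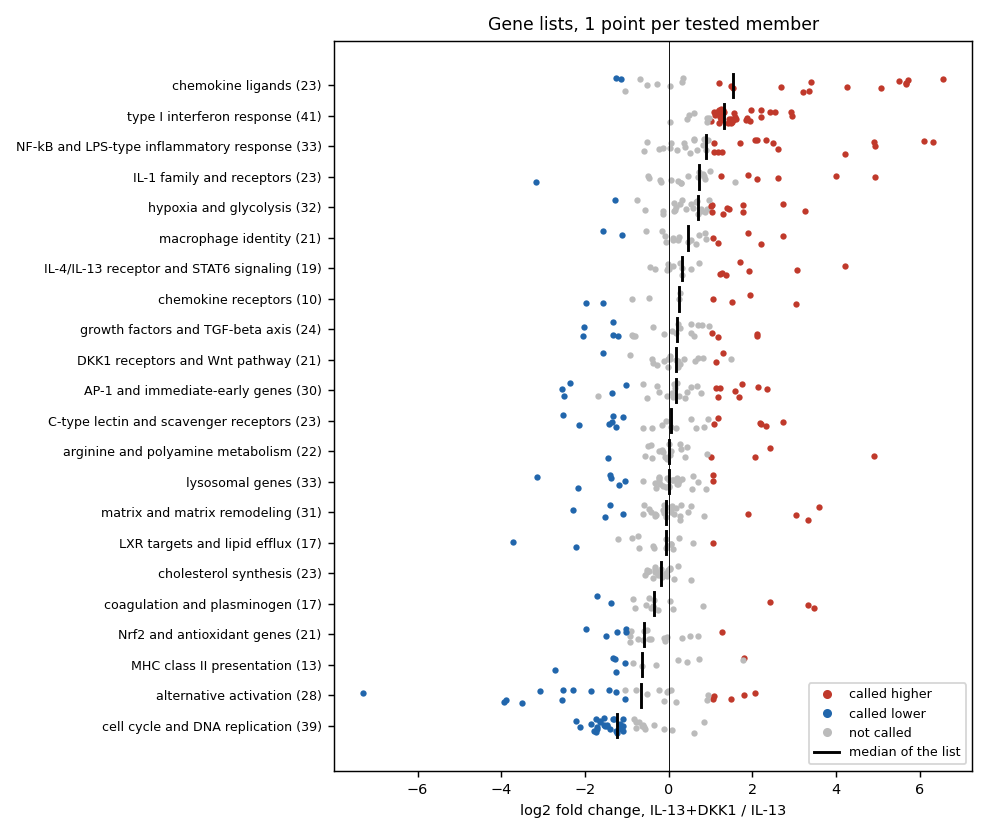
Log2 fold change of IL-13+DKK1 over IL-13 for every tested member of 22 gene lists, with the number tested in parentheses and a black bar at the list's median. Medians run from -1.24 (cell cycle) to 1.55 (chemokine ligands). The interferon, NF-kB and IL-4/IL-13 lists have called members on the right alone, and the cell cycle list on the left alone.

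Several abundant transcripts of lipid handling and lysosomes were lower. Lpl, the lipoprotein lipase, had 209.7, 222 and 204 CPM with IL-13+DKK1, against 2551, 2828 and 2977 CPM with IL-13 (log2 fold change -3.72 ± 0.07, adjusted p = 3.69e-20). Lipa, the lysosomal acid lipase, had 489.6, 463 and 459 CPM with IL-13+DKK1, against 2128, 2076 and 2147 CPM with IL-13 (log2 fold change -2.17 ± 0.03, adjusted p = 3.27e-21). Cd36, a fatty acid and oxidized lipoprotein receptor, had 1235, 1172 and 1149 CPM with IL-13+DKK1, against 2944, 3183 and 3425 CPM with IL-13 (log2 fold change -1.43 ± 0.04). No library of either group reached into the other for these genes. The sterol exporters went apart: Abcg1 was called lower at -2.20 ± 0.08 and Abca1 higher at 1.07 ± 0.06. Of 17 LXR target and lipid efflux genes, 1 was called higher (5.88%, against 4.66% of all genes) and 2 lower (11.8%, against 6.10% of all genes). Of 23 cholesterol synthesis genes, 0 were called in either direction by edgeR's quasi-likelihood test. At an unadjusted p of 0.05 alone, 2 of the 23 were higher and 13 lower. Of 33 lysosomal genes, 2 were called higher (Lyz1 and Lyz2, 6.06%, against 4.66% of all genes) and 6 lower (18.2%, against 6.10% of all genes). Besides Psap and Lipa the lower ones included Gpnmb, Tfeb and Atp6v0d2, and the cathepsins Ctsb (-0.23 ± 0.03), Ctsd (-0.33 ± 0.03) and Ctsl (0.70 ± 0.04) stayed under the fold threshold. Fabp4 (-1.69 ± 0.12) and Angptl4 (-2.47 ± 0.20), further lipid genes picked after their values were seen, were called lower too.

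Ocstamp, a membrane protein that mouse osteoclasts and giant cells need to fuse, had 0.473, 0.889 and 0.764 CPM with IL-13+DKK1, against 10.1, 12.2 and 12.1 CPM with IL-13 (log2 fold change -3.99 ± 0.23). Atp6v0d2, a proton pump subunit with a part in the same process in mice, had 35.4, 45.8 and 45.7 CPM with IL-13+DKK1, against 329, 399.6 and 405 CPM with IL-13 (log2 fold change -3.15 ± 0.10). Dcstamp (-2.51 ± 0.18) and Cd9 (-2.61 ± 0.07), picked after their values were seen because they belong to the same process, were called lower as well.

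Genes of MHC class II presentation were called mostly lower, apart from a costimulator. Ciita, the coactivator that switches on MHC class II genes, had 5.47, 4.40 and 4.93 CPM with IL-13+DKK1, against 30.9, 30.3 and 35.1 CPM with IL-13 (log2 fold change -2.71 ± 0.15). Cd74, the invariant chain, had 717, 567 and 546 CPM with IL-13+DKK1, against 1453, 1102 and 1229 CPM with IL-13 (log2 fold change -1.05 ± 0.11, or -0.93 and no longer called without IL-13 replicate 1), and H2-Aa, H2-Eb1 and H2-DMb1 were called lower between -1.32 and -1.26. H2-Ab1, at -0.63 ± 0.11, was not. Cd86, a ligand of CD28, was called higher at 1.81 ± 0.15. The list of 13 thus counted 1 higher (7.69%, against 4.66% of all genes) and 5 lower (38.5%, against 6.10% of all genes). Itgax, which encodes CD11c, had 125, 164 and 162 CPM with IL-13+DKK1, against 1011, 1288 and 1409 CPM with IL-13 (log2 fold change -3.04 ± 0.10). It is also on the dendritic cell list and accounted for nearly all of the list's sum, which was 132 to 171 CPM with IL-13+DKK1 and 1030.0 to 1429 CPM with IL-13. Of the 7 tested members of that list, 3 were called lower (42.9%, against 6.10% of all genes) and 1, Ccr7, higher. Batf3, a transcription factor of conventional dendritic cells, had 2.87, 2.77 and 2.90 CPM with IL-13+DKK1, against 15.6, 16.4 and 16.4 CPM with IL-13 (log2 fold change -2.50 ± 0.19, adjusted p = 2.11e-10). Clec9a was scarce and was called lower at -1.54 ± 0.62, a call that was lost whichever of the 6 libraries was left out, and Zbtb46 (-1.16 ± 0.50) and Xcr1 (1.40 ± 0.59), scarce too, were not called. Flt3, Cd209a and Siglech were not among the tested genes. The part of such cells in the MHC class II values was not tested.

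Pattern recognition receptors were called in both directions. Marco, a scavenger receptor, had 479, 456 and 579 CPM with IL-13+DKK1, against 72.1, 67.2 and 88.8 CPM with IL-13 (log2 fold change 2.73 ± 0.11). Cd163, the haptoglobin-hemoglobin receptor, averaged 54.6 ± 1.91 CPM with IL-13+DKK1 and 11.8 ± 1.41 CPM with IL-13 (log2 fold change 2.20 ± 0.07), and the Fc receptor Fcgr1 was called at 1.90 ± 0.07. Clec4e (Mincle, 2.32 ± 0.07), Clec4n (Dectin-2, 2.19 ± 0.06) and Clec4d (1.19 ± 0.04) were called higher, and Clec7a (Dectin-1, -1.26 ± 0.04), Clec12a (-1.08 ± 0.03), Mgl2 and the efferocytosis receptor Axl (-2.15 ± 0.12) lower. Of 23 genes of that list, 6 were called higher (26.1%, against 4.66% of all genes) and 7 lower (30.4%, against 6.10% of all genes). Of 21 macrophage identity genes, 5 were called higher (23.8%: Marco, Cd163, Fcgr1, Itgam and Lyz2) and 2 lower (9.52%: Cebpa and Cx3cr1), against 4.66% and 6.10% of all genes. Antioxidant genes leaned down, with Gsta3 (-1.98 ± 0.15), Nqo1 (-1.49 ± 0.12), Cat (-1.23 ± 0.04), Gpx1 and Txnrd1 called lower and mitochondrial Sod2 (1.28 ± 0.05) higher among 21. These shares were 23.8% lower and 4.76% higher, against 6.10% and 4.66% of all genes.

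Of 21 tested genes of the Wnt pathway itself, 2 were called higher (9.52%, against 4.66% of all genes) and 1 lower (4.76%, against 6.10% of all genes), so no share here stands on more than 2 genes. Kremen1, a coreceptor that binds DKK1, had 61.8, 65.9 and 65.8 CPM with IL-13+DKK1, against 30.2, 27.5 and 30.1 CPM with IL-13 (log2 fold change 1.14 ± 0.06). Tle3, a corepressor of TCF factors, was called at 1.29 ± 0.05, and the scarce Fzd4 lower at -1.58 ± 0.37. The DKK1 coreceptor Lrp6 averaged 304 ± 12.3 CPM with IL-13+DKK1 and 186 ± 9.88 CPM with IL-13 (log2 fold change 0.71 ± 0.05), and Lrp5 averaged 111 ± 4.10 CPM with IL-13+DKK1 and 86.3 ± 7.43 CPM with IL-13 (0.36 ± 0.05), both under the fold threshold. Ctnnb1, which encodes β-catenin, had a log2 fold change of -0.38 ± 0.04 and Ckap4, a further DKK1 receptor, one of -0.28 ± 0.06, neither of them called. The Wnt target Axin2 was not among the tested genes.

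Among AP-1 and immediate-early genes, which JNK and ERK signaling induce, 8 of 30 were called higher (26.7%) and 5 lower (16.7%), against 4.66% and 6.10% of all genes. Fosl2 (1.19 ± 0.05), Batf (2.15 ± 0.20), Ier3 (2.35 ± 0.06), Maf (1.22 ± 0.04) and Dusp6, an ERK phosphatase (1.69 ± 0.07), were higher. Atf3 had 81.5, 76.9 and 73.0 CPM with IL-13+DKK1, against 375, 413 and 405 CPM with IL-13 (log2 fold change -2.37 ± 0.05), and Batf3 was called lower at -2.50 ± 0.19. The AP-1 site TGANTCA, which reads the same on both strands, was in a promoter window of 12.6% of genes called higher, 7.41% of genes called lower and 6.66% of all tested genes with a window.

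The other genes with the largest changes have varied roles. Gja1 (connexin 43) had 94.0, 101 and 109 CPM with IL-13+DKK1, against 1.43, 1.37 and 2.45 CPM with IL-13 (log2 fold change 5.84 ± 0.12). Cd38, an NAD hydrolase, had 33.7, 38.9 and 42.3 CPM with IL-13+DKK1, against 0.238, 0.494 and 1.42 CPM with IL-13. Its log2 fold change of 5.71 ± 0.20 was 6.68 without IL-13 replicate 3, the highest of that group. Nrg1, a ligand of ErbB receptors, averaged 35.0 ± 3.58 CPM with IL-13+DKK1 and 0.682 ± 0.320 CPM with IL-13 (log2 fold change 5.69 ± 0.15), and Kmo, kynurenine monooxygenase, was called at 4.36 ± 0.21. At the other end, Myh15 (-6.0 ± 0.27), Map2 (-5.80 ± 0.48), Col4a5 (-4.51 ± 0.18), Olfr111 (-4.38 ± 0.37), Nes (-4.36 ± 0.23), Hr (-4.18 ± 0.25), Chst3 (-4.12 ± 0.15) and Ryr1 (-4.09 ± 0.30) fell to between 0.0998 and 1.42 CPM on average with IL-13+DKK1, against 5.38 to 29.3 CPM with IL-13. Map2 and Nes encode a neuronal microtubule protein and the intermediate filament nestin, and Hr a corepressor of nuclear receptors.

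Whether the DKK1 effect depended on IL-13 was tested as the difference of 2 effects, IL-13+DKK1 over IL-13 minus DKK1 over untreated, which share no library. DKK1 without IL-13 called 845 genes higher and 1054 lower. Of the genes called with IL-13, 998 were called in the same direction without it, which is 56.9% of the 1754 with IL-13 and 52.6% of those without, and 23 in the opposite direction. The difference itself was called for 754 genes (4.62%), 346 of them more positive with IL-13 and 408 more negative. It was called for 0 of the 41 interferon response genes by edgeR's quasi-likelihood test, and also for 0 by DESeq2 and limma-voom, with 13 past an adjusted p and 18 past an unadjusted p of 0.05 without the fold threshold. It was called for 4 of the 39 cell cycle genes. It was called for 12 of the 28 alternative activation genes, 12 of the 23 chemokine ligands and 16 of the 23 cholesterol synthesis genes. A gene not called for the difference is not shown to respond alike.

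Retnla stood farthest out on the negative side. Its log2 fold change with DKK1 was -0.16 without IL-13, and the difference was -7.13 ± 0.60 (adjusted p = 7.35e-09). Without IL-13 it was near the detection limit in both groups, so little fall with DKK1 could be seen there. For Arg1 the log2 fold change with DKK1 was smaller on top of IL-13, although its mean level was highest with IL-13+DKK1. Mean levels were 334 CPM with DKK1 and 14.7 CPM untreated, a log2 fold change of 4.51, against 2.06 on IL-13. The difference was -2.45 ± 0.24 (adjusted p = 6.07e-08). Il4ra and Mrc1 were not called for it, at 0.55 ± 0.06 and 0.38 ± 0.08. Ccl22 averaged 4.20 CPM with DKK1 and 0.519 CPM untreated, a log2 fold change of 3.01 where its change with IL-13 was -0.52 (difference -3.53 ± 0.30). Ciita and Itgax fell with DKK1 in the presence of IL-13 and had log2 fold changes of 0.30 and -0.06 without it (differences -3.01 ± 0.20 and -2.98 ± 0.14). Ass1, which encodes the argininosuccinate synthase that remakes arginine, had log2 fold changes of -0.09 with IL-13 and 3.70 without (difference -3.79 ± 0.20), and the pseudogene Gm5424 showed the same pattern (-3.52 ± 0.13). Gm5424 is an annotated processed pseudogene on chromosome 10, and reads it may share with Ass1 or another parent gene cannot be told apart. Ass1 and Gm5424 may therefore not be separate results.

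The cholesterol synthesis genes gave the largest share of called differences among the lists with 10 or more tested members, all 16 of them more negative with IL-13. These enzymes are induced together by SREBP2 when cells lack sterol. Hmgcs1, which makes HMG-CoA, had 52.0, 62.4 and 57.9 CPM with IL-13+DKK1, against 76.8, 88.9 and 90.5 CPM with IL-13, and means of 88.0 CPM with DKK1 and 39.7 CPM untreated (difference -1.72 ± 0.10, adjusted p = 2.72e-11). With DKK1 alone it rose (1.15), and on IL-13 it was not called. In the MHC class II list the difference was called for 7 of 13, with Cd74 at -1.08 ± 0.16, H2-DMa at -1.72 ± 0.08 and Cd86 at 1.27 ± 0.20.

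On the positive side stood Egr1, Id1, Ctla2a and Ccl7. Egr1, an immediate-early zinc finger factor, had 4.58, 11.2 and 10.8 CPM with IL-13+DKK1, against 2.80, 2.75 and 2.35 CPM with IL-13, and IL-13+DKK1 replicate 1 was the lowest of its group. Its means were 5.35 CPM with DKK1 and 22.8 CPM untreated (difference 3.86 ± 0.41). Id1, a BMP-induced inhibitor of helix-loop-helix factors, had 91.8, 92.8 and 87.3 CPM with IL-13+DKK1, against 23.7, 26.3 and 26.0 CPM with IL-13, and means of 13.1 CPM with DKK1 and 31.2 CPM untreated (difference 3.10 ± 0.29). Both were higher with DKK1 when IL-13 was present and lower with DKK1 when it was not, as was Hbegf (difference 3.79 ± 0.48). Ccl7 averaged 4.64 CPM with DKK1 and 0.946 CPM untreated, and Ccl8 averaged 1.5 CPM with DKK1 and 0.182 CPM untreated, so both had their highest mean with IL-13+DKK1 (differences 2.76 ± 0.29 and 2.66 ± 0.71). Timp1 behaved likewise, at 10.4 CPM with DKK1 and 3.35 CPM untreated (difference 1.40 ± 0.20).

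**Figure D5:**
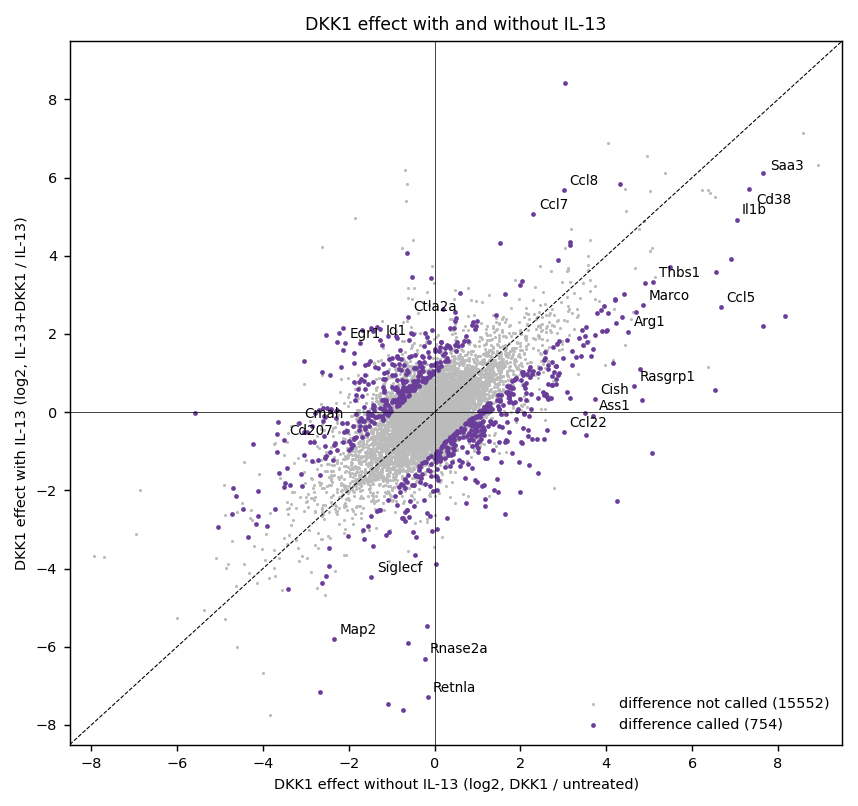
Each point is a tested gene, with the log2 fold change of DKK1 without IL-13 (DKK1 over untreated) across and with IL-13 (IL-13+DKK1 over IL-13) upward, and the dashed line marks equal effects. Purple marks the 754 genes whose difference was called, with Retnla and Rnase2a far below the line near 0 on the horizontal axis, Ccl22, Ass1 and Cish to the right near 0 on the vertical axis, and Egr1 and Id1 in the upper left.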

How the data were processed

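Bulk RNA seq was made from ribosome-depleted stranded total RNA libraries. The authors aligned reads with STAR 2.7.6a to GRCm39 after FastQC 0.11.9, and featureCounts gave the raw counts, which the authors deposited for 17723 genes, none with a highest count under 11. The sources used here give neither the annotation nor the strand setting or featureCounts version, and overlapping, antisense and near-identical genes are uncertain. The authors used DESeq2 1.30.0.

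Genes were kept with edgeR's filterByExpr (minimum count 10, minimum total 15), leaving 16306, and scaled by TMM. A model with 1 mean per group over all 12 libraries was tested with edgeR 4.0.16 (limma 3.58.1, R 4.3.3), with Benjamini-Hochberg adjustment. Standard errors are the absolute log2 fold change over the square root of F. The biological coefficient of variation was 0.0612, and no 2 libraries were copies of each other. Of counts between 1 and 20, 76.0% were even, against 51.6% above 1000, so the number of independent molecules behind low counts is unknown.

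Alternatives were RLE, upper-quartile and library-size scaling, no filter, DESeq2 1.42.0, limma-voom, the 6 libraries alone, TREAT, a replicate block and leaving out each library. The tests were checked on simulated data.

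Members and gene lists were chosen with earlier results of these data known. Of 614 listed symbols, 556 matched the file's symbols and 3 current GENCODE vM39 symbols, and 544 were tested. Named genes are 21 taken from the study, which ties some of them to DKK1 without IL-13 and all of which are also list members, the 12 largest changes in each direction with a mean of 100 counts or more and no overlap, the 6 largest CPM gains and losses, list members, and the 8 largest differences of effect in each direction. Some list members are in the counts but are not reported here by name. Dcstamp, Cd9, Fabp4 and Angptl4 were chosen after their values were seen. Positions are from GENCODE vM39, which held 99.6% of the IDs. Promoter windows (250 bases before to 50 after a start) are from RefSeq, build GRCm38.p6, matched by symbol for 10664 genes, 65.4% of those tested, and printed stretches were placed on GRCm39 by exact match. Genes without a window were not searched. A gene with several starts counted as a match if any of its windows matched, with 13541 windows in all. With the first window of each gene alone, the ISRE core was in 12.8% of genes called higher, 2.57% of genes called lower and 3.28% of all. The AP-1 site was then in 11.2%, 5.6% and 5.38%.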

Additional observations from a re-analysis of the deposited data

Results flagged for a closer look

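Of 62 genes named for this comparison or for their difference, 33 had a DKK1 effect with IL-13 that differed from the effect without it by the test of the difference itself (adjusted p of 0.043 or less in edgeR's quasi-likelihood test and a difference above 1 on the log2 scale). The genes with the largest differences in each direction were among the 62 because this same test had called them. The 33 of 62 therefore do not measure how often the effect depends on IL-13. Among all 16306 tested genes the difference was called for 754 (4.62%). The difference was more positive with IL-13 for 12 of the 33. It was 3.86 for Egr1, 3.10 for Id1 and 3.07 for Ctla2a, which were called higher with DKK1 on IL-13 and had negative log2 fold changes without it. It was 2.90 for Cmah, 2.79 for Cd207, 2.75 for Arap2 and 2.71 for Gm10800, whose log2 fold changes with DKK1 were between -3.50 and -2.60 without IL-13 and between -0.71 and 0.11 with it. Gene Gm10800 has no position in the annotation used, and 1 library could turn the sign of its change with IL-13. For genes that rose in both settings, by a larger fold change with IL-13, the difference was 2.76 (Ccl7), 2.66 (Ccl8), 1.51 (Gja1), 1.40 (Timp1) and 1.20 (Kmo).

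For 21 genes it was more negative with IL-13. Genes that rose in both settings, by a smaller fold change with IL-13, were Ccl5 (-3.99), Arg1 (-2.45), Marco (-2.13), Il1b (-2.11), Thbs1 (-1.76), Cd38 (-1.62), Saa3 (-1.54) and Il1r1 (-1.48). Genes that rose with DKK1 without IL-13 and were not called with it were Rasgrp1 (-3.99), Ass1 (-3.79), Ccl22 (-3.53), Gm5424 (-3.52) and Cish (-3.40). Genes that fell by a larger fold change with IL-13 present were Retnla (-7.13), Rnase2a (-6.07), Map2 (-3.46), Siglecf (-2.75), Nes (-1.75), Hr (-1.65), Col4a5 (-1.10) and Lgals3 (-1.06). Among these, the standard error of the difference was widest for Rnase2a (1.34), Map2 (1.05), Retnla (0.60) and Hr (0.59). Retnla and Rnase2a were near the detection limit without IL-13, at 0.980 and 0.0613 CPM with DKK1 and 1.10 and 0.0753 CPM untreated.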

How the results depend on the processing

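Testing for a change above 2-fold itself (TREAT) left 381 genes called higher, 507 lower and 187 for the difference of effects, by the test's construction. With every other setting these 3 counts stayed within 1.5 times of 760, 994 and 754. Leaving out 1 library gave 694 to 769 genes higher, 931 to 980 lower and 661 to 801 for the difference. Library size alone called 692 higher and 1056 lower, 39.6% higher against 43.3%, and moved the median of all genes to -0.047. DESeq2 called 1759 genes, 1726 of them among the 1754 that edgeR called, and limma-voom 1789, 1713 of them among those. Of 231 named genes, 183 kept their direction and call under every alternative. TREAT ended the calls of Mrc1, Tfec, Lyz2, Lgmn, Psap, Cxcl12, Ccr7, Ctsk, Pdgfc, Inhba, Gdf15, F7, Dusp4, Fzd4, Abca1, Cebpa and Slc7a7. It also ended those of Clec12a, Txnrd1, Gpx1, Lyz1, Elane, Retnlg, Gata2, Kit, Clec9a, Ccl24, Cd74, Mcm5, Mcm7, Oas3, Pdcd1lg2, Ptges and Rrm1. The sign turned for no called gene. It turned for Irf1 with library size alone (-0.0119) and for Ngp with limma-voom (0.00526), and over the left-out libraries the values ran from -0.631 to 0.0258 for Cmah, -0.0857 to 0.292 for Gm10800, -0.0400 to 0.114 for Arap2, -0.112 to 0.0204 for Chil3, -0.223 to 0.0117 for Ass1 and -0.0813 to 0.0589 for Gm5424. They ran from -0.435 to 0.00356 for Gp1ba, -0.0152 to 0.0699 for Irf1, -0.0114 to 0.451 for Mpo, -0.151 to 0.127 for Ngp and -0.0683 to 0.0137 for Slc7a2. Without IL-13 replicate 1 the calls of Abca1 (0.99), Cd74 (-0.93), Dusp4 (-0.98), Pdcd1lg2 (-0.91), Ptges (0.99), Slc7a7 (0.99), Txnrd1 (-0.999), Cxcl12 (-0.81) and Kit (-0.88) were lost. Without IL-13 replicate 2 those of Gpx1 (-0.99) and Lgmn (0.98) were lost, and without IL-13 replicate 3 those of Ccr7 (0.89), Elane (0.62), Gpx1 (-0.98) and Inhba (0.97). Without IL-13+DKK1 replicate 1 the calls of Elane (0.96), Gpx1 (-0.995), Pdcd1lg2 (-0.96), Ptges (0.97) and Kit were lost, without replicate 2 those of Ccr7 (0.97), Cd74 (-0.997) and Elane (0.98), and without replicate 3 those of Cd74 (-0.99), Ctsk (-0.95), Lgmn (0.99), Txnrd1 (-0.999) and Kit. Clec9a, called at -1.54, lost its call without any 1 library and with DESeq2 or limma-voom, and Zbtb46, not called, was called lower by both.

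Same-numbered replicates deviated together little (correlations 0.0817, 0.0428 and 0.055), so the numbers were not taken to pair the cultures, although each correlated best with its own number. A replicate block gave 754 genes higher, 987 lower and 769 for the difference.

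Scarce genes limit these data: with 3 libraries a group, changes in genes under about 1 CPM rest on few counts, and the excess of even numbers leaves their counting error unknown. Promoter matches cover 65.4% of tested genes.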
